A study of Mus musculus with 6 samples.

Results

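The accessible intervals of mouse chromosome 11 were chosen by their chromosome name alone, and they number 4111 of the 52223 consensus intervals counted by ATAC-seq in the series. They run from position 3123275 to position 121966325 in mm10 coordinates and are 194 to 6178 bp long. The chromosome was singled out because earlier values from the same comparison put it above the other chromosomes, so its shift and its calls are given here as a description. Of its intervals, 4076 had enough fragments to be tested and 35 were left out as too low, against 51637 tested over all chromosomes.

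ATAC-seq uses the Tn5 transposase to cut accessible DNA and attach adapters, so the number of fragments from an interval follows how open it is and how many copies of it the cells hold. All 6 libraries came from neural progenitors made from mouse embryonic stem cells. Every culture received 5 µM of the GSK3 inhibitor CHIR99021 on day 2, 100 nM retinoic acid with 10 nM of the Smoothened agonist SAG from day 3, and SAG alone at 10 nM from day 5. On day 5 a lentivirus was added that carried either the fluorescent protein mScarlet3 alone (mScarlet, 3 libraries) or Nr6a1 joined to mScarlet3 by a 2A peptide (Nr6a1OE, 3 libraries). Cells were sorted for fluorescence on day 9, 4 days after the virus, and 50000 cells went into each library, so both groups hold transduced cells only. Neither the stem cell line and its number of clones nor the promoter of the virus is given in the sources used here. Whether replicates were separate cultures is not said in the labels, and the spread between libraries that the p-values rest on may be technical.

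Nr6a1 (germ cell nuclear factor) belongs to the orphan nuclear receptors and binds the sequence AGGTCA, alone with a TCA extension or as a direct repeat, and represses pluripotency genes such as Pou5f1 as cells differentiate. In the embryo it is required for axis elongation and for the timing of Hox gene use in the trunk. Mouse chromosome 11 carries the Hoxb cluster, the retinoic acid receptor gene Rara, the patterning genes Meis1, Sox9, Wnt3a and Nog, and many housekeeping and cell cycle genes. Chromosome 11 is also among the chromosomes that mouse embryonic stem cells are known to gain in culture.

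The sequences below are 5 examples of the gene starts that lay in opened intervals of chromosome 11. Each is the 120 bases directly before a RefSeq gene start (GRCm38.p6, the mm10 coordinates), read 5′ to 3′ along the gene, with each CG pair in capitals. They belong to Mat2b, a regulatory subunit of methionine adenosyltransferase (chr11:40692683-40692802, minus strand), the actin-binding profilin gene Pfn1 (chr11:70654651-70654770, minus strand), and the signalling adaptor Traf4 (chr11:78165551-78165670, minus strand). The other two are the ubiquitin ligase gene Trim37 (chr11:87126955-87127074, plus strand) and the small heat shock protein gene Hspb9 (chr11:100713809-100713928, plus strand).
Mat2b: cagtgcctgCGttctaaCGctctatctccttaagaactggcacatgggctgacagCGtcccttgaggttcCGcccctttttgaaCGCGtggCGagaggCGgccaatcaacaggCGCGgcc
Pfn1: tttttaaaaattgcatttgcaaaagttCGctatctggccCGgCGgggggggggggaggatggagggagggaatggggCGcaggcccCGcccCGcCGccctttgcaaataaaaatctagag
Traf4: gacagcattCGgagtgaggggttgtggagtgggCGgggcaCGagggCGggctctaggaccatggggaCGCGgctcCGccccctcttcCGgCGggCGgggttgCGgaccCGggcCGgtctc
Trim37: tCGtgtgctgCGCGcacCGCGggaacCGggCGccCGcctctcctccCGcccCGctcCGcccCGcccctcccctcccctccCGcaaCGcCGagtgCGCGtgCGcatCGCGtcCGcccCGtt
Hspb9: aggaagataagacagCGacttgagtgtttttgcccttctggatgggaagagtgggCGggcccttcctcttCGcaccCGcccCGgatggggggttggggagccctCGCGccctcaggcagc
These 5 stretches hold 10, 7, 13, 22 and 7 CG pairs in that order, and G and C make up 60.0, 57.5, 74.2, 80.0 and 64.2% of their bases. Not every opened start was so rich in CG. That of Gm35337, in the opened Serpinf1 interval, held 1 CG pair and 54.2% G and C. The others not shown held 8 to 21 CG pairs. Over the 851 tested chromosome 11 intervals that hold a RefSeq gene start window (250 bases before to 50 after the start), the median G and C content was 62.7%, against 62.3% on the other chromosomes.

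Gene starts of chromosome 11 held the Nr6a1 motifs at shares like those of all gene starts. Searched on both strands of the 300-base windows, the direct repeat of AGGTCA with no base between its copies occurred in 2 of 32851 windows (0.00609%) and in 0 of the 2289 on chromosome 11. The extended motif TCAAGGTCA occurred in 139 windows (0.423%), of which 9 were on chromosome 11 (0.393%). The core AGGTCA, which is part of both longer motifs, occurred in 16.3% of all windows and in 16.5% of those on chromosome 11. A match is a description of the letters and not a bound site.

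Only 2 tested chromosome 11 intervals held a gene start window with the extended motif, and both are shown because they carry the binding sequence of the overexpressed factor. Capitals mark the motif, which stands on the opposite strand in the window of Acsl6 (chr11:54303647-54303675, plus strand), an acyl-CoA synthetase gene, and on the gene's own strand in that of Psmc3ip (chr11:101095655-101095683, minus strand), a meiotic recombination factor.
Acsl6: gcctccaaccTGACCTTGAgcattcttat
Psmc3ip: cgggtttagcTCAAGGTCAcgagtgctca
Neither interval changed past the threshold. The Acsl6 interval had 44.6 ± 2.59 CPM in mScarlet and 43.2 ± 2.14 in Nr6a1OE (SD, n = 3 each; CPM is fragments scaled to a library size of 1e+06), with a log2 fold change of -0.05 and an SE of 0.07 (adjusted p = 0.84 by edgeR). The Psmc3ip interval had 45.9 ± 3.01 and 47.2 ± 0.996 CPM (log2 fold change 0.04, SE 0.07, edgeR adjusted p = 0.886). Over the 107 chromosome 11 intervals with an AGGTCA in a gene start window the median log2 fold change was 0.052, and over the 744 without one it was 0.037.

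Chromosome 11 as a whole took a larger share of the fragments in every Nr6a1OE library than in any mScarlet library. Its intervals took 9.07, 9.04 and 9.08% of all interval fragments in mScarlet 1, 2 and 3. They took 9.37, 9.42 and 9.40% in Nr6a1OE 1, 2 and 3. The means were 9.06 ± 0.0210% and 9.39 ± 0.0266% (SD, n = 3 each), a ratio of 1.04, or 0.052 on the log2 scale. The difference of 0.334 percentage points exceeded the spread within either group, and the groups did not overlap. It came to 24498 fragments per Nr6a1OE library, out of 658879 to 744810 on the chromosome. The raw numbers followed depth as well, and in mScarlet they were 619776 to 729009.

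**Figure D1:**
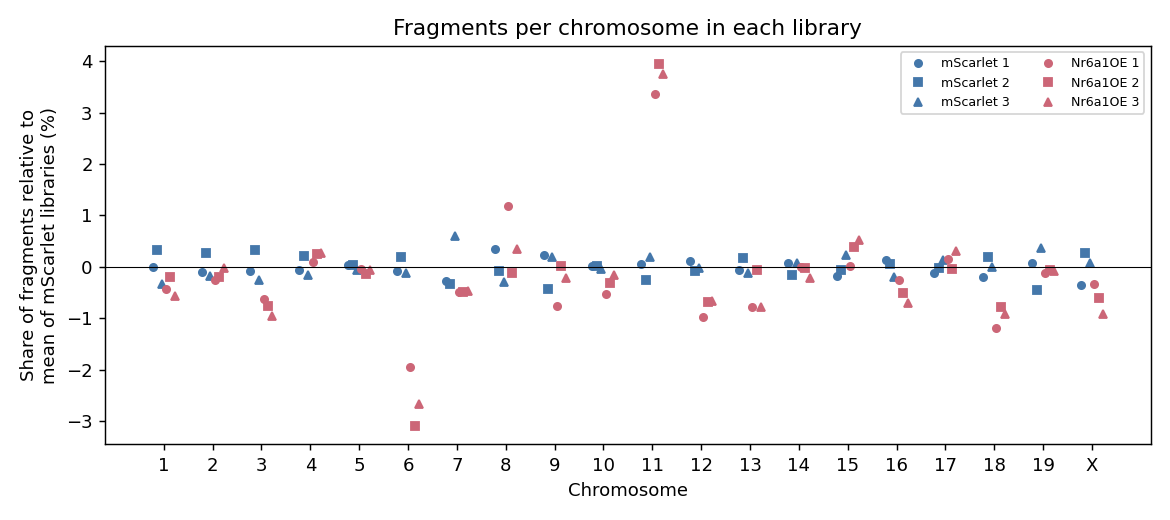
Share of interval fragments on each chromosome (x axis) in each library, as the percent difference from the mean of the mScarlet libraries (y axis); blue points are mScarlet and red points Nr6a1OE libraries, and chromosome Y with 17 intervals is left out. The 3 Nr6a1OE libraries stand above 3% on chromosome 11, and the next largest departure among the chromosomes drawn is the fall on chromosome 6.

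Among the other 18 autosomes, 0 had every Nr6a1OE library above every mScarlet library, 7 had every one below and 11 had overlapping groups. Their share ratios ran from -0.037 to 0.0068 on the log2 scale, with chromosome 6 lowest. On chromosome 6 the share was 6.09 ± 0.0103% in mScarlet and 5.93 ± 0.0356% in Nr6a1OE (SD, n = 3 each). Chromosome 11 is the autosome that stood above, and chromosome 6 the one furthest below. Chromosome Y, with 17 intervals and about 0.03% of the fragments, also stood above (log2 share ratio 0.12). Shares of 1 total are tied to each other, so a gain on 1 chromosome lowers the rest, and with the other autosomes as the denominator the chromosome 11 ratio was 0.057.

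The shift was small for any single interval but ran through most of them. The edgeR log2 fold change had a median of 0.058 over the 4076 tested intervals, or 4.11% higher, with quartiles of -0.04 and 0.17. It lay above 0 for 2702 of them (66.3%), against 50.8% of all tested intervals and 49.5% on the other chromosomes, where the median was -0.0025. The medians of the other 18 autosomes ran from -0.031 to 0.013. The quartiles were 0.214 apart on chromosome 11 and 0.231 apart on the rest, so the distribution on chromosome 11 lay higher without being wider.

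Each library showed the shift by itself. Over the 2321 chromosome 11 intervals that averaged 50 fragments or more, the median log2 ratio to the mScarlet mean was 0.0035, -0.0051 and 0.00085 in mScarlet 1, 2 and 3. In Nr6a1OE 1, 2 and 3 it was 0.047, 0.049 and 0.058. On the other chromosomes the same medians were -0.0074, -0.012 and -0.0051 in the Nr6a1OE libraries. The groups did not overlap on chromosome 11 by this measure either.

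More copies of the chromosome in some cells and more accessible DNA per copy both raise these counts, and they cannot be told apart because copy number was not measured. Likewise, in bulk libraries fewer cells of a type and fewer fragments per cell cannot be told apart. As a check of the cells, all 8 neural progenitor markers (among them Sox1, Sox2 and Olig2) had an interval within 1 kb of a gene end, at 26.2 to 134 CPM in mScarlet. Intervals of that kind were found for 4 of 4 neuron, 1 of 3 pluripotency, 2 of 3 mesoderm, 3 of 3 endoderm and 1 of 4 endothelial and blood markers, so open gene ends alone do not separate these types. The pluripotency gene with an interval was Nanog, at 2.71 CPM in mScarlet and 3.38 in Nr6a1OE. Their part in the chromosome 11 shift was not tested.

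Along the chromosome the higher level was present from one end to the other. In 25 bins of 5 Mb, each with 43 to 368 tested intervals, the median log2 fold change was above 0 in 25, against 40% of the 490 bins on other chromosomes. In 22 of the 25 bins (88%) each Nr6a1OE library had a larger share of the fragments than each mScarlet library, against 31 of the other 490 (6.33%). The other 3 bins, at 10 to 15, 15 to 20 and 45 to 50 Mb, had overlapping groups, and 0 had the groups the other way round. A bin ratio of at least 0.03 was found in 22 of 25 bins on chromosome 11 and in 22 of 490 (4.49%) elsewhere.

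**Figure D2:**
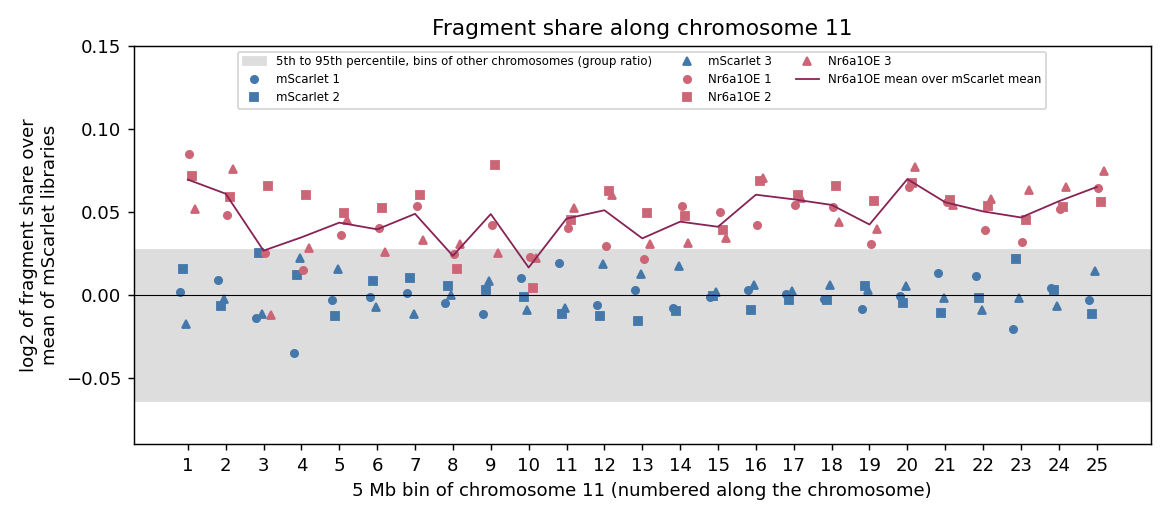
Log2 ratio of each library's fragment share to the mScarlet mean (y axis) in 5 Mb bins numbered along chromosome 11 (x axis); the line is the ratio of group means and the grey band covers the 5th to 95th percentile of that ratio over the 490 bins of other chromosomes. The line stays above 0 in all 25 bins and above the grey band in most, lowest in bin 10 and highest in bins 1 and 20.

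The bins were not equal. By median log2 fold change the highest were 0 to 5 Mb (0.090), 5 to 10 Mb (0.083) and 120 to 125 Mb (0.080), which lie at the chromosome's ends. The lowest were 35 to 40 Mb (0.0088), 45 to 50 Mb (0.024) and 10 to 15 Mb (0.029). In the 0 to 5 Mb bin the share was 0.275, 0.278 and 0.271% in the mScarlet libraries and 0.291, 0.289 and 0.285% in the Nr6a1OE libraries. In the 35 to 40 Mb bin it was 0.104, 0.105 and 0.105% against 0.107, 0.106 and 0.107%, a log2 ratio of 0.024 (SE over libraries 0.0051), so its groups still did not overlap. In the 45 to 50 Mb bin Nr6a1OE 2, at 0.156%, lay below mScarlet 1, at 0.157%.

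Bin ratios varied somewhat more than counting error alone. They ran from 0.016 at 45 to 50 Mb to 0.070 at 95 to 100 Mb, with an SD of 0.0136 over bins against a median counting error of 0.0077. Of the 25 bins, 20 lay within 2 counting errors of the value of the whole chromosome. On the other chromosomes the ratio had an SD of 0.0317 over bins, with a median counting error of 0.0116. The gene-rich 95 to 100 Mb bin, which holds the Hoxb cluster and 346 tested intervals, took 0.915, 0.912 and 0.919% of fragments in mScarlet and 0.957, 0.959 and 0.965% in Nr6a1OE. In segments at 0 to 40, 40 to 80 and 80 to 125 Mb the ratios were 0.049, 0.045 and 0.058.

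Chromosome 11 was higher than the rest in every class of length, strength and position examined. Split into quartiles by length over all tested intervals, chromosome 11 exceeded the rest by 0.089, 0.055, 0.058 and 0.057 in median log2 fold change, from the shortest to the longest. By strength, measured as mean CPM, the excess was 0.070, 0.070, 0.069 and 0.056 from the weakest quartile to the strongest. In each of these classes the 3 Nr6a1OE libraries had a larger share of fragments than the 3 mScarlet libraries. The excess was somewhat smaller in the strongest intervals, and the rest of the genome was also lower there (-0.014 in the strongest quartile, 0.0086 in the one below).

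**Figure D3:**
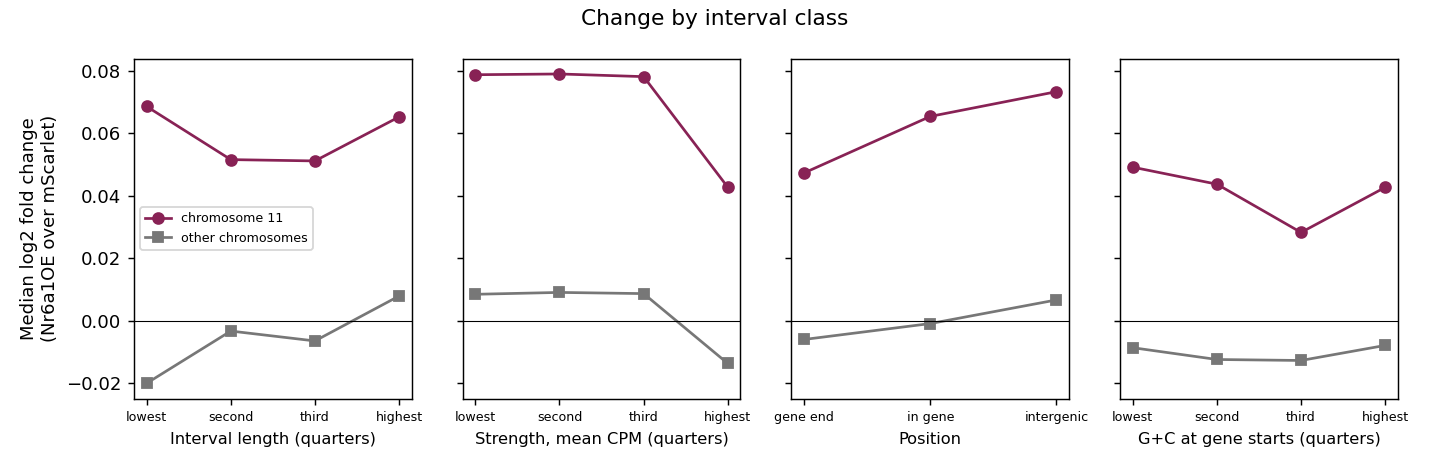
Median log2 fold change (y axis) of chromosome 11 intervals (circles) and of all other intervals (squares) by quartile of length, quartile of strength, position and quartile of G and C content at gene starts (x axes). The circles lie above the squares in all 15 classes, by 0.041 to 0.089.

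Among the strongest 5% of intervals, those above 75 CPM, the 297 on chromosome 11 had a median of 0.029 and the others -0.020. Of these, 68.4% lay above 0 on chromosome 11 and 35.3% elsewhere. By position, the excess was 0.053 within 1 kb of a gene end (1178 intervals), 0.066 inside genes (1526) and 0.067 between genes (1372). For gene start windows it was 0.058, 0.056, 0.041 and 0.051 from the lowest to the highest quartile of G and C content. Intervals at least 1 kb from the next interval, where a fragment is least likely to be counted in 2 of them, had a median of 0.057 against -0.0029 elsewhere.

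Landmark gene ends showed how faint the shift is at 1 interval. The landmark of a bin is the interval of highest mean mScarlet CPM among those within 1 kb of a protein-coding gene end. Since that choice used the mScarlet libraries alone, the log2 fold changes of landmarks may be biased downward. These 25 had 74.1 to 244 CPM in mScarlet. Of them 17 (68%) had a log2 fold change above 0, with a median of 0.025, and 0 passed the threshold by edgeR (lowest adjusted p = 0.053, at Fzd2). For landmarks of the other chromosomes 33.6% of 503 lay above 0, with a median of -0.022. The groups overlapped at 22 of the 25, and overlap was also usual over all tested intervals. There every Nr6a1OE library lay above every mScarlet library in 7.89%, and below in 8.73%.

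The Wnt receptor gene Fzd2 (chr11:102603036-102606280) had 138, 131 and 122 CPM in the mScarlet libraries and 146, 145 and 138 in the Nr6a1OE libraries. Its log2 fold change of 0.13 (SE 0.04) was the highest among landmarks, and mScarlet 1 lay just above Nr6a1OE 3. The interval at Phf12 (chr11:77981644-77984864), which encodes a Sin3-associated PHD finger protein, had 157, 151 and 159 CPM against 171, 171 and 163 (log2 fold change 0.11, SE 0.04, edgeR adjusted p = 0.091). The groups did not overlap at Phf12, nor at the pantothenate kinase gene Pank3 (0.07). They did not overlap in the other direction at Tob1, an antiproliferative factor (-0.05). At Usp22 (chr11:61174178-61175590), the deubiquitinase of the SAGA complex, the values were 151, 129 and 150 CPM in mScarlet and 143, 135 and 131 in Nr6a1OE (log2 fold change -0.08, SE 0.04, edgeR adjusted p = 0.388), with overlapping groups.

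Single intervals of chromosome 11 passed the threshold in both directions. At a Benjamini-Hochberg adjusted p under 0.05 by edgeR's quasi-likelihood test over all intervals, 45 were higher in Nr6a1OE (opened, 1.10% of those tested) and 28 lower (closed, 0.687%). Over all tested intervals the shares were 0.469% opened and 1.26% closed, and on the other chromosomes 0.414% and 1.31%. Chromosome 11 thus held 7.89% of the tested intervals, 18.6% of the opened ones and 4.29% of the closed ones. The chromosome was chosen on this contrast, so nothing is read from these shares. Without 1 library the opened count fell to between 20 (without Nr6a1OE 3) and 35, and to 23, 24 and 25 without mScarlet 1, mScarlet 3 and Nr6a1OE 1.

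Other ways of counting are given for completeness, and they use the same contrast. In 567 intervals of chromosome 11 (13.9%) every Nr6a1OE library lay above every mScarlet library, against 7.89% of all tested intervals. In 211 (5.18%) every one lay below, against 8.73%. DESeq2 called 1 interval opened (0.027% of those it tested) and 0 closed on chromosome 11, against 4 (0.00867%) and 99 (0.215%) over all chromosomes. At an unadjusted p under 0.05 by edgeR, 444 were higher (10.9%) and 145 lower (3.56%), against 5.73% and 6.87% of all.

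Opened intervals lay at gene ends, inside genes and between genes, and closed ones away from gene ends. Of the 45 opened, 18 (40%) lay within 1 kb of a gene end, 17 inside a gene and 10 between genes. Gene ends made up 28.9% of all tested intervals on chromosome 11. Elsewhere, 40 of 197 opened intervals (20.3%) were at a gene end, where gene ends made up 26.9% of those tested. The median log2 fold change was 0.38 on chromosome 11 and 0.50 elsewhere, and 19 of the 45 were under 0.3. Opened gene ends gained 0.17 to 0.59 from mScarlet levels of 6.43 to 94.2 CPM. Of the 28 closed intervals, 0 lay at a gene end, 10 inside a gene and 18 between genes, against 46 of 624 closed intervals at a gene end elsewhere (7.37%).

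To separate local changes from the shift, the fit was repeated with the median log2 fold change of each chromosome removed, so that a call means a change beyond that median. Then 14 intervals were opened (0.343%, against 0.405% of all tested intervals) and 44 closed (1.08%, against 1.25%). The 14 were all among the 45, and the 44 were the 28 closed before with 16 more. The median removed from chromosome 11 was positive (0.058), so opened calls could be lost while closed ones were nearly bound to stay. On the other chromosomes 179 of 197 opened intervals and 589 of 624 closed ones were kept. Beyond the median, the share of calls on chromosome 11 was slightly below that of all intervals in both directions. Without 1 library these counts ran from 6 (without Nr6a1OE 2) to 13 opened and from 27 (without mScarlet 1 or mScarlet 3) to 34 closed. They were 7, 9 and 9 opened without mScarlet 1, mScarlet 3 and Nr6a1OE 3, and 29 closed without Nr6a1OE 3.

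**Figure D4:**
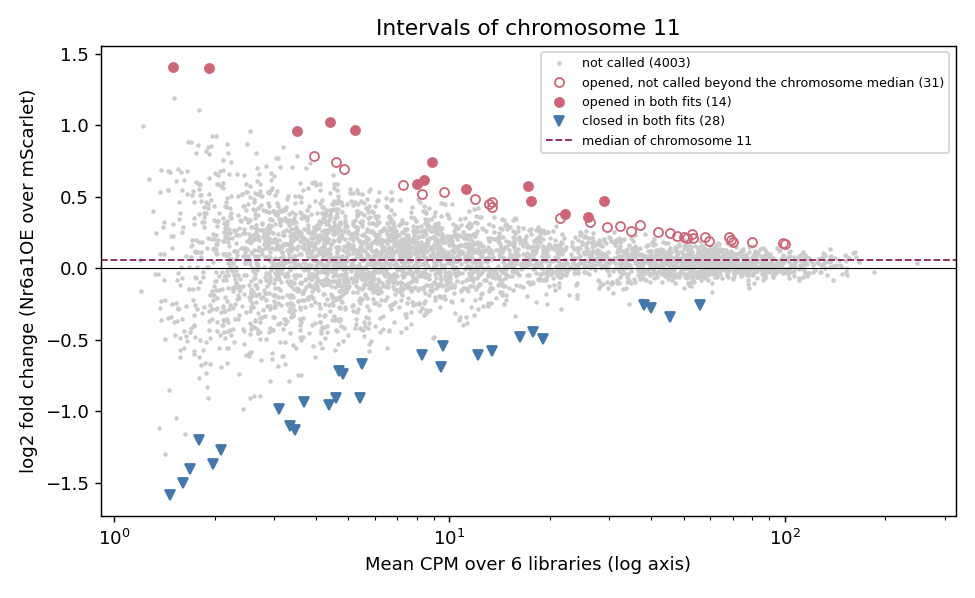
Log2 fold change (y axis) against mean CPM over the 6 libraries (x axis, log scale) for the 4076 tested intervals of chromosome 11. Filled circles are the 14 intervals opened in both fits, open circles the 31 opened only before the chromosome median (dashed line) was removed, and triangles the 28 closed in both fits; the open circles include the strong intervals with small gains.

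The 31 opened intervals that were not called beyond the median had a median gain of 0.26 and a median mScarlet level of 33.2 CPM, and 15 of them lay at a gene end. Their adjusted p beyond the median ran from 0.0517 to 0.287, so some missed the threshold narrowly. The 14 that were called in both fits gained 0.36 to 1.41 from a median level of 6.65 CPM, with 3 at a gene end, 8 inside a gene and 3 between genes. None of the 19 with a gain under 0.3 was among the 14.

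Of the gene starts shown above, Hspb9 alone was also called beyond the median. At Pfn1 (interval chr11:70653531-70656775) the libraries had 97.1, 98.1 and 87.4 CPM in mScarlet and 104, 108 and 105 in Nr6a1OE, with no overlap. The log2 fold change was 0.17 (SE 0.05, adjusted p = 0.0165 by edgeR), and beyond the median 0.11 (adjusted p = 0.226). The Mat2b start rose from 74.8 ± 1.54 to 85.1 ± 4.17 CPM, that of Traf4 from 92.9 ± 1.98 to 105 ± 4.96, and that of Trim37 from 64.4 ± 1.47 to 74.0 ± 0.472 (SD, n = 3 each). Beyond the median their adjusted p by edgeR was 0.226, 0.194 and 0.186. Hspb9 had 18.9, 18.8 and 20.1 CPM in mScarlet and 26.0, 25.3 and 24.1 in Nr6a1OE (log2 fold change 0.38, edgeR adjusted p = 0.00903, and 0.0484 beyond the median). Each of these 5 calls was lost by edgeR in 2 to 5 of the 6 fits without 1 library.

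The largest gains among intervals averaging 20 fragments or more lay 1.1 to 189.9 kb from a gene end. The highest lay inside Fam222b (chr11:78153161-78154347), 3.0 kb from a gene end, with 3.15, 3.35 and 2.25 CPM in mScarlet and 5.54, 6.64 and 5.55 in Nr6a1OE. Its log2 fold change was 1.03 (SE 0.22, edgeR adjusted p = 0.000655) and the groups did not overlap. The opened Traf4 start lies 9.4 kb further on, with 1 tested interval between them. An interval inside Ksr1 (chr11:79041797-79042557), which encodes a scaffold of the Ras to MAP kinase cascade, rose from 2.38 ± 0.299 to 4.67 ± 0.696 CPM (SD, n = 3 each; log2 fold change 0.96). One inside Fam83g, whose product takes part in BMP signalling, had 2.88, 4.81 and 3.00 CPM in mScarlet and 7.1, 6.5 and 7.07 in Nr6a1OE. The groups did not overlap, with mScarlet 2 the nearest to the other group.

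**Figure D5:**
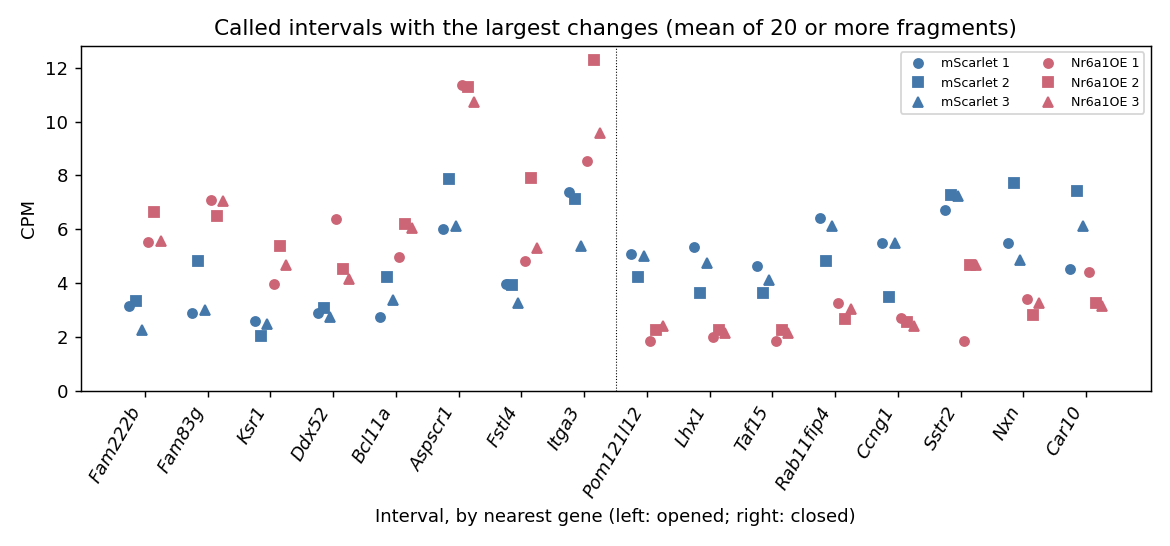
CPM (y axis) in each library for the 8 opened and 8 closed intervals with the largest changes among called intervals that averaged 20 fragments or more on chromosome 11 (x axis, by nearest gene); blue points are mScarlet and red points Nr6a1OE libraries. No group overlaps the other in any of the 16, since that was a condition of the choice, and the Sstr2 interval has 1 low Nr6a1OE library.

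The other 5 named gains were near or inside genes of varied function. The RNA helicase gene Ddx52 had an interval 16.3 kb from its end (chr11:83925090-83925793), with 2.88, 3.06 and 2.75 CPM in mScarlet and 6.39, 4.52 and 4.16 in Nr6a1OE (0.79). Bcl11a, a zinc finger repressor of globin and neuronal genes, was the nearest gene, at 189.9 kb, to an interval that rose from 3.45 ± 0.746 to 5.75 ± 0.677 CPM (0.75; chr11:24363432-24364324). An interval inside Aspscr1, which encodes a tether of glucose transporter vesicles, had 6.02, 7.87 and 6.12 CPM in mScarlet and 11.4, 11.3 and 10.7 in Nr6a1OE (0.74; chr11:120706889-120708358). Fstl4, a follistatin-like gene, had one 16 kb away that rose from 3.72 ± 0.407 to 6.01 ± 1.66 CPM (0.69; chr11:52747665-52748525). Near the integrin gene Itga3 one rose from 6.63 ± 1.10 to 10.1 ± 1.94 CPM (0.62; chr11:95084832-95086386). Beyond the chromosome median the intervals of Ddx52 (edgeR adjusted p = 0.0722), Bcl11a (0.0593) and Fstl4 (0.0836) were no longer called, while those of Fam222b, Ksr1, Fam83g, Aspscr1 and Itga3 were. Those of Fam222b, Fam83g and Aspscr1 also held in each fit without 1 library. The calls of Ddx52 were lost in 5 of these 6 fits, those of Bcl11a and Fstl4 in 4, and those of Ksr1 and Itga3 in 2.

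The strongest opened call by p lay between genes, 331.0 kb from the nearest gene end, that of Meis1 (chr11:19350609-19352560). It had 23.3, 22.9 and 26.4 CPM in mScarlet and 33.8, 33.2 and 33.8 in Nr6a1OE, so the Nr6a1OE libraries agreed closely and lay well above the others. The log2 fold change was 0.47 (SE 0.08, edgeR adjusted p = 9.54e-06, and 0.000245 beyond the median). This was the interval that DESeq2 also called. It is named here because of its p, after its values were seen.

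Meis1, a homeodomain partner of Hox proteins, is the nearest gene to 35 tested intervals, 23 of them with a log2 fold change above 0 and a median of 0.090. They did not move as one. An interval inside the gene (chr11:18963368-18964099) was among the weakest called, with 0.685, 1.75 and 0.749 CPM in mScarlet and 2.70, 3.25 and 2.40 in Nr6a1OE (1.40, SE 0.35, edgeR adjusted p = 0.00944). Another, 139.7 kb from the gene (chr11:19159368-19160833), closed from 10.4, 11.1 and 12.5 to 7.95, 8.19 and 7.32 CPM (-0.54, SE 0.14, edgeR adjusted p = 0.0167). Both calls were lost without some of the libraries, 3 of the 6 in each case.

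Among closed intervals averaging 20 fragments or more, the 8 largest losses lay 10.7 to 405.2 kb from a gene end. Weaker intervals had larger losses, down to -1.59. The lowest log2 fold change of the 8, -1.13 (SE 0.25, edgeR adjusted p = 0.00132), belonged to an interval 219.9 kb from Pom121l12 (chr11:14378619-14379337). It had 5.07, 4.23 and 5.00 CPM in mScarlet and 1.85, 2.26 and 2.40 in Nr6a1OE. This call held in each fit without 1 library. Lhx1 encodes a LIM homeodomain factor of interneurons, and an interval 128.0 kb from it (chr11:84653542-84654556) had 5.34, 3.64 and 4.75 CPM in mScarlet and 1.99, 2.26 and 2.14 in Nr6a1OE (-1.10, SE 0.25). Within Taf15, an RNA-binding protein gene, one fell from 4.14 ± 0.506 to 2.08 ± 0.214 CPM (-0.99; chr11:83495596-83496034). Within Rab11fip4, which encodes an effector of Rab GTPases, one fell from 5.79 ± 0.863 to 2.99 ± 0.293 CPM (-0.95; chr11:79615629-79616130).

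The remaining named losses were of the same kind. Nearest to Ccng1, a cyclin gene induced by Trp53, but 405.2 kb away, an interval fell from 4.82 ± 1.15 to 2.55 ± 0.151 CPM (-0.93; chr11:41160556-41161017). Nearest to the somatostatin receptor gene Sstr2 by gene ends, at 168.0 kb, but inside the zinc transporter gene Slc39a11, one had 6.71, 7.29 and 7.24 CPM in mScarlet and 1.85, 4.66 and 4.67 in Nr6a1OE (-0.91; chr11:113450441-113451364). Nr6a1OE 1 was far lower than the other two, and without it the edgeR adjusted p was 0.142. Inside Nxn, which encodes nucleoredoxin, a regulator of Wnt signalling, one fell from 6.02 ± 1.5 to 3.17 ± 0.307 CPM (-0.90; chr11:76334485-76335561). Between genes near Car10, a carbonic anhydrase related gene, one fell from 6.02 ± 1.46 to 3.6 ± 0.695 CPM (-0.74; chr11:93719154-93719800). All 8 were also closed beyond the chromosome median, which is no further check, since removing a positive median makes every loss larger. Leaving out 1 library ended the call in 4 of 6 fits for the intervals of Taf15 and Car10, in 3 for Ccng1, in 1 each for Lhx1 (mScarlet 1), Nxn (mScarlet 2) and Sstr2, and in 0 for Pom121l12 and Rab11fip4.

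The rest of the 14 intervals opened in both fits were scattered over the chromosome. At Gal3st1, the sulfotransferase of sulfatide synthesis, a gene end interval (chr11:3997967-3999023) rose from 6.43 ± 0.979 to 9.61 ± 1.18 CPM (0.59). The end of Unc13d, a vesicle priming factor, had 14.4, 15.2 and 14.5 CPM in mScarlet and 21.3, 21.1 and 18.8 in Nr6a1OE (0.47, SE 0.11, edgeR adjusted p = 0.00206, and 0.0132 beyond the median; chr11:116077690-116079432), and held in each fit without 1 library. Wscd1 was the nearest gene to a pair. The one 251.0 kb away (chr11:71497625-71498913) had 13.3, 15.4 and 12.7 CPM in mScarlet and 19.3, 23.7 and 18.7 in Nr6a1OE (0.58, SE 0.11, edgeR adjusted p = 5.23e-05), and the one inside the gene (chr11:71758035-71759072) rose from 22.8 ± 1.42 to 29.2 ± 1.83 CPM (0.36). An interval inside the SNARE gene Stx8 (chr11:67975429-67975939) was very weak, with 0.958, 0.583 and 0.874 CPM against 2.70, 2.12 and 1.77 (1.41, SE 0.40, edgeR adjusted p = 0.0333). One inside the tubulin folding gene Tbcd, with Zfp750 as the nearest gene end, rose from 9.08 ± 0.302 to 13.3 ± 0.849 CPM (0.56; chr11:121548948-121551005). Leaving out 1 library ended the Stx8 call in 5 of 6 fits and the Gal3st1 call in 3. It ended the call inside Wscd1 in 2 fits and that inside Tbcd in 1. The Wscd1 interval 251.0 kb away held in each.

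Of the 16 intervals that were closed only beyond the median, the log2 fold change before removal ran from -0.98 to -0.078 and the adjusted p by edgeR from 0.0591 to 0.388. They lay inside genes (8), between genes (7) and at a gene end (1). The 1 at a gene end was the Usp22 landmark, with a log2 fold change of -0.14 and an edgeR adjusted p of 0.0382 beyond the median. Near Rbfox3, a neuronal splicing factor gene, an interval 28.9 kb away had 4.22 ± 0.459 and 2.44 ± 0.668 CPM (SD, n = 3 each; edgeR adjusted p = 0.0751, and 0.0466 beyond the median).

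Genes were then grouped by function, taking intervals whose nearest protein-coding gene end lay within 100 kb. For the 10 Hoxb genes, which encode the anterior to posterior identity factors of this cluster, 28 intervals were tested. Their median log2 fold change was 0.075, with 24 above 0, a range of -0.07 to 0.24, and mScarlet levels of 3.52 to 92.8 CPM. One of them opened, at Hoxb9 (chr11:96269936-96272931), with 52.0, 46.9 and 43.3 CPM in mScarlet and 50.6, 57.4 and 56.4 in Nr6a1OE. Its groups overlapped, since mScarlet 1 lay above Nr6a1OE 1, and the call (log2 fold change 0.21, SE 0.06, edgeR adjusted p = 0.0437) was lost beyond the chromosome median (adjusted p = 0.238). Relative to that median the cluster stood at 0.016, so it moved about as far as the chromosome did.

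Of 148 intervals at 24 patterning and lineage genes, 111 lay above 0, with a median of 0.099, 4 opened and 2 closed. Over all tested intervals of chromosome 11, 1.10% opened and 0.687% closed, and nothing is read from counts this small. The opened ones were the Meis1 interval inside the gene and those of Wnt3a, Tbx4 and Nog. At the Wnt ligand gene Wnt3a (chr11:59263600-59265085) the libraries had 33.5, 32.3 and 33.7 CPM in mScarlet and 44.7, 36.7 and 41.3 in Nr6a1OE (0.30, SE 0.07, edgeR adjusted p = 0.00634, and 0.0561 beyond the median). Without Nr6a1OE 1, the highest library there, the call was lost (edgeR adjusted p = 0.165). At the BMP antagonist gene Nog (chr11:89298161-89300226) the rise was from 44.2 ± 0.238 to 51.5 ± 1.60 CPM (0.22), and at the hindlimb factor gene Tbx4 (chr11:85888261-85891487) from 26.7 ± 1.24 to 32.5 ± 2.33 CPM (0.29). Neither of these was called beyond the median (edgeR adjusted p = 0.213 and 0.143), and without 1 library the calls were lost in 6 of 6 fits for Nog and in 5 for Tbx4.

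The closed pair of that list lay near Tcf7 and Sox9. An interval 30.8 kb from Tcf7, a nuclear effector of Wnt signalling, had 4.11, 2.33 and 2.12 CPM in mScarlet and 0.994, 1.13 and 1.14 in Nr6a1OE (-1.37, SE 0.35, edgeR adjusted p = 0.00974; chr11:52314215-52314846). One 22.9 kb from Sox9, a factor of neural stem cells and glia, had 39.6, 39.5 and 45.2 CPM in mScarlet and 34.2, 35.0 and 34.9 in Nr6a1OE (-0.26, SE 0.07, edgeR adjusted p = 0.0277, and 0.00226 beyond the median; chr11:112810701-112812111). Without 1 library the Sox9 call was lost in 4 of 6 fits (highest edgeR adjusted p = 0.364), and the Tcf7 call in 2 (highest 0.29), those without mScarlet 1 and without Nr6a1OE 1. Meanwhile the landmark at the Sox9 gene end itself had 107 ± 5.85 and 112 ± 6.26 CPM, with overlapping groups (SD, n = 3 each).

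The other lists held 1 call in all, read beside the 1.10% opened and 0.687% closed over the chromosome as too few to compare. The 48 intervals at 18 cell cycle and genome maintenance genes had a median of 0.11 with 39 above 0, and 0 were called by edgeR. The 78 intervals at 20 neuronal and synaptic genes had a median of 0.074 (53 above 0) and the 33 at 17 housekeeping genes one of 0.041 (22 above 0), again with 0 calls. Among the 67 intervals at 17 growth factor signalling genes the median was 0.028, with 41 above 0. One closed there, inside Rptor, the raptor subunit of the mTOR kinase complex (chr11:119644638-119645587), from 19.9, 19.1 and 22.5 to 14.2, 16.1 and 15 CPM (-0.44, SE 0.11, edgeR adjusted p = 0.00428). That call was lost without mScarlet 3 and without Nr6a1OE 1.

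Intervals at genes that neural progenitors do not use were described the same way, as lists for contrast. The type I keratin genes had 8 intervals with a median of 0.14 (5 above 0), and 15 at blood genes had a median of 0.11 (11 above 0). At the chemokine genes, 6 intervals had a median of -0.050, with 1 above 0. None of these intervals was called by edgeR, and lists this short show little more than their few members. For comparison, all chromosome 11 intervals had a median of 0.058 and 66.3% above 0.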

How the data were processed

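The authors deposited raw fragment counts for consensus intervals in 6 libraries. Per the file headers, featureCounts 2.0.1 counted read pairs, let a fragment count in each interval it overlapped, and required 0.2 of the fragment to overlap. The submitters' processing notes name mm10; the aligner, the peak caller and the handling of duplicates and of the Tn5 cut are not named in those notes or headers. Depth was 6857763 to 8030029 fragments per library, which limits the precision of weak intervals, and the fitted common variation between replicates beyond counting was 1.47%.

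Intervals that passed filterByExpr were scaled by TMM and compared with edgeR 4.0.16 (quasi-likelihood test, R 4.3.3), with Benjamini-Hochberg adjustment over all of them and a threshold of 0.05. The SE comes from the F statistic. For changes beyond the chromosome median, each chromosome's median log2 fold change was added to the offsets of the Nr6a1OE libraries. Scripts were tested on simulated data. Intervals were named by the nearest end of 21900 protein-coding genes in a RefSeq table (GRCm38.p6); exons and introns were not distinguished.

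Named intervals were the 8 opened and 8 closed with the largest change among those called with a mean of at least 20 fragments and groups that do not overlap, the landmark of each bin, and called intervals of the lists; the others are described as called in both fits or for their p. Of the listed genes, Olig3 and Rps15a are not on chromosome 11. The members, lists and tests were chosen with earlier results of these data known. Alternatives used DESeq2 1.42.0, other scalings, filters, bin widths, a replicate block, an assumed variation of 10% and each library left out in turn.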

Additional observations from a re-analysis of the deposited data

How the results depend on the processing

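Neither the chromosome-wide values nor any named interval, in the sense defined above, changed direction past a threshold under any setting run. Intervals described for other reasons were not part of that comparison. The chromosome 11 fragment share ratio (0.052, log2) was 0.0574 with the other autosomes as denominator, 0.0571 without the strongest 5% of intervals, 0.0479 without called intervals, and 0.0503 to 0.0544 without 1 library. The median log2 fold change (0.058) was 0.0640 with library totals, 0.0634 with scaling from intervals outside chromosome 11, 0.0687 beyond 1 kb from gene ends, and 0.0539 to 0.0620 without 1 library. Without 1 library, bins with a positive median were 96 to 100% of the 25, and bins with separate groups 88 to 92%. The 45 opened intervals became 4 under an assumed variation of 10%, 1 with DESeq2 and 20 to 35 without 1 library. The 28 closed became 12 with a mean of at least 50 fragments, 10 under the assumed variation, 0 with DESeq2 and 16 to 26 without 1 library, lowest without Nr6a1OE 1 (16) and mScarlet 1 (17). Beyond the median, the 14 opened became 3 and the 44 closed 15 under the assumed variation, and 6 to 13 and 27 to 34 without 1 library. The fitted variation between libraries beyond counting was 1.47%, and the cause of the differences between tools was not tested. The counts that follow leave out the other intervals described, such as those of Trim37, Dlx3 and Unc13d. Over the named single intervals, 58 of the values without 1 library lost the call, 4 gained one and 244 were unchanged. Under other settings 36 lost it, 4 gained one and 450 were unchanged. The unchanged values include those of the 25 landmarks, of which 0 had a call to lose. The Fzd2 landmark passed the threshold with library totals, with scaling outside chromosome 11 and with loess offsets, and that of Phf12 with loess offsets. With the replicate block there were 43 opened and 27 closed, and 12 and 42 beyond the median. In the labels the same-numbered libraries share only a number. Their deviations correlated at 0.019, -0.010 and -0.015. With so little variation beyond counting, such values cannot tell whether these libraries were paired. Over intervals that averaged 100 fragments or more, Nr6a1OE 1 and 3 differed by no more than sampling noise (chi-square per degree of freedom 0.999, p = 0.549). Over those that averaged 10 or more they differed by slightly more than that (chi-square per degree of freedom 1.06, p = 1.61e-18). With the pair summed to 1 sample, 40 opened and 27 closed.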

Other observations

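Called intervals of chromosome 11 that followed each other within 100 kb formed 8 pairs, of which 5 were both opened, 2 both closed and 1 mixed. The closest closed pair lay 1.0 kb apart inside Skap1, which encodes an adaptor of T cell receptor signalling. Its intervals fell from 22.2 ± 2.31 to 15.9 ± 1.21 CPM and from 44.0 ± 1.78 to 36.2 ± 1.75 CPM (SD, n = 3 each). A fragment counted in both would have to span the whole gap, and whether any did was not tested. The opened pair near Itga3 and the homeobox gene Dlx3 lay 14.0 kb apart with 0 tested intervals between them. Its Dlx3 member rose from 7.85 ± 0.906 to 11.4 ± 0.298 CPM. That member was not called beyond the chromosome median (edgeR adjusted p = 0.0523), and its call was lost in 4 of 6 fits without 1 library. The mixed pair lay inside Stx8, 73.6 kb apart with 6 tested intervals between them: the weak member opened, and the strong one fell from 60.8 ± 2.94 to 50.8 ± 0.65 CPM. These pairs were picked after their values were seen.

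Of the 25 bins, 5 held no opened interval and 11 no closed one. Between replicates, counts of chromosome 11 intervals averaging 10 fragments or more gave a chi-square per degree of freedom of 1.02 to 1.15 within a group and 1.20 to 1.40 between groups. Over such intervals of all chromosomes it was 1.05 to 1.10 within a group and 1.27 to 1.44 between groups.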
